A study of Mus musculus with 25 samples.

Results

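The genes described here encode the proteins of the cytosolic ribosome. Members were the probe sets of the Mouse 430_2.0 array that its annotation assigns to a single gene whose symbol is an Rpl or Rps number, with the forms carrying a final a, x, l or y included, or is Rplp0, Rplp1, Rplp2 or Rpsa. The rule found 105 probe sets for 49 genes among the 45101 probe sets of the array. Each gene was followed through its leading probe set, the one with the highest mean log2 signal over all arrays, and the other 56 probe sets served as a check. The 49 genes comprised 26 proteins of the large (60S) and 23 of the small (40S) subunit. In the mouse reference annotation 84 protein-coding genes met the symbol rule, of which 48 had a leading probe set. The other 36, Rpl3, Rpl5, Rpl10 and Rplp1 among them, had no probe set assigned to them alone. Rps4l, the remaining member, is listed by RefSeq as a transcribed pseudogene.

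The mice were 25 female Balb c/J animals, and the CA1 region of the hippocampus of each was hybridised to 1 array. Handled pups (11 mice) had been taken from their mothers for 15 minutes every morning from postnatal day 1 to 14, whereas non-handled pups (14 mice) had not, and all were tested at 8 weeks and killed 2 weeks later. RNA came from Qiagen RNA/DNA columns in 17 mice (7 handled, 10 non-handled) and from Trizol in 8 (4 handled, 4 non-handled), as read from sample positions in the extraction protocol, and every RNA was amplified in a double round. The study asked how postnatal handling alters hippocampal gene expression. Whole litters were handled or not, and the mice came from fewer litters than there were mice, but no label ties a mouse to a litter. The p-values therefore treat littermates as independent, which can make those for handling too small. Mice are named as in the labels, H for handled and NH for non-handled.

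A ribosome is built from ribosomal RNAs and a nearly fixed set of proteins, most of them present once per particle, and brain tissue transcribes their genes at high levels in every cell type. Most of the messages open with a run of pyrimidines at the cap, the 5′ terminal oligopyrimidine tract, through which mTOR signalling sets how well they are translated. Several members have close relatives (Rpl22l1, Rpl39l, Rps27l) that can take the place of the usual protein, and many have near-identical processed pseudogenes.

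Of the 49 members, 43 matched a RefSeq promoter of build GRCm38.p6, and windows of 30 bases, 10 before the annotated start and 20 from it, are given for 8 of them. They were chosen because these are the 4 members past the threshold for handling and 4 with large differences between extraction methods, and capitals mark the longest unbroken run of C and T in each.
Rpl27, chr11:101442235-101442264, plus strand: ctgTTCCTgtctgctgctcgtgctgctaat
Rpl39, chrX:37085203-37085232, minus strand: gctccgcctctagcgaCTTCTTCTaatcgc
Rpl7a, chr2:26910797-26910826, plus strand: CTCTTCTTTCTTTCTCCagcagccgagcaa
Rps6, chr4:86857348-86857377, minus strand: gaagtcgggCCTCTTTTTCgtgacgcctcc
Rps10, chr17:27635225-27635254, minus strand: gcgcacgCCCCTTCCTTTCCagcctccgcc
Rps9, chr7:3704031-3704060, plus strand: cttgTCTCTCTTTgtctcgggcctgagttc
Rpl41, chr10:128549149-128549178, minus strand: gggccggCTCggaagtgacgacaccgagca
Rps15, chr10:80292421-80292450, plus strand: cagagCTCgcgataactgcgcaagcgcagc

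A run of 6 or more pyrimidines on the sense strand lay in this window in 25 of the 43 members (58.1%), against 28.6% of the 27025 promoters of the table. The median of the longest run was 7 bases in members and 4 over all promoters. The run was 17 bases long in Rpl7a, 13 in Rps10 and 10 in Rps6, but 5 in Rpl27 and 3 in Rpl41 and Rps15. The letters CGGAAGT, an ETS-type motif searched on both strands of the 300-base promoters, were found in 13 members (30.2%) and in 6.59% of all promoters, whereas TATAAA within 50 bases upstream was found in 1 member (2.33%) and in 2.88% of all promoters. These matches depend on the annotated start and describe letters, not binding.

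Array means of the MAS 5.0 signal lay between 731 and 899, and array medians between 79.6 and 162.8. The CA1 genes Wfs1, Ccn3 and Pou3f1 were at median percentiles of 99.0, 99.3 and 95.4 of their arrays, whereas Prox1 and C1ql2, which mark dentate granule cells, were at 47.5 and 38.8. The choroid plexus gene Ttr ranged from a percentile of 13.5 to 94.2. NH162 stood apart, with the highest Actb 3′/5′ ratio (2.24 on the natural log scale, against a mean of 1.28 with columns) and the only member values at the top of the signal range, 3 probe sets of Rps29.

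Members were among the brightest probe sets. The median over members of the mean log2 signal was 13.01, and 35 of 49 had a mean log2 signal of 11 or more, which placed them at a mean percentile of 94.2 or above in their arrays. The other 14 leading probe sets were dimmer, down to 2.07 for Rps16. Brightness depends on the probes as well as on the RNA, so it is not a ranking of transcript amounts. Of the leading probe sets 33 carry a name ending in _s_at, _a_at or _x_at, which marks probes that can match more than 1 transcript, and near-identical copies may contribute to their signal.

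Within a group of mice, members tended to deviate in the same direction in a given mouse. The same counts were not made for other probe sets, so this tendency is not shown to be particular to members. In NH162, 47 of the 49 members were above the mean of its own handling and extraction group, and the count was 46 in NH166 and 43 in NH165. In NH142 only 2 members were above it. Among handled mice with columns the count ran from 4 (H117) to 42 (H123), and among the 8 Trizol mice from 7 (NH138) to 41 (H126).

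**Figure D1:**
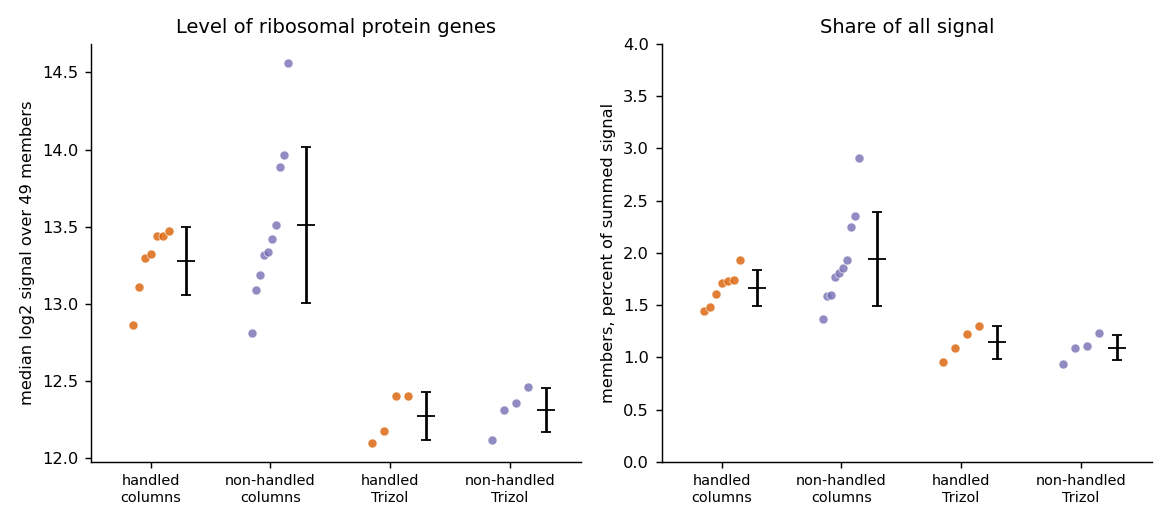
Level of the 49 ribosomal protein genes in each mouse: left, the median log2 signal over members; right, their summed signal as a percent of all signal on the array. Each point is 1 mouse, the horizontal mark with its bar is the mean ± SD, and every mouse with columns lies above every mouse with Trizol on both axes.

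The extraction method, not handling, separated the mice by their ribosomal protein signal. The median log2 signal over members was 13.41 ± 0.42 (SD, n = 17) with columns and 12.29 ± 0.14 (SD, n = 8) with Trizol. It ranged from 12.81 to 14.56 with columns and from 12.10 to 12.46 with Trizol, so the groups did not overlap. The members' share of the summed signal was 1.83% ± 0.38 with columns (1.37 to 2.90%) and 1.12% ± 0.13 with Trizol (0.939 to 1.30%). Among mice with columns, the median log2 signal over members averaged 13.28 ± 0.22 (SD, n = 7) after handling. Without handling it averaged 13.51 ± 0.51 (SD, n = 10), and these ranges overlapped.

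For single genes, 42 of 49 members were higher with columns and 2 were lower at an adjusted p under 0.05 (limma on log2 signal with handling in the model, Benjamini-Hochberg over all 45037 probe sets tested). Over all probe sets tested 16.5% were higher and 23.3% lower. The median log2 difference over members was 0.72, against -0.16 over all probe sets. With each array centred on its median it was 1.196, against 0.31 over all probe sets, and with quantile normalization 0.65 against 0.16. With arrays brought to a common mean and variance it was 0.78 against 0.16. In the 26 genes with a probe set of plain name it was 0.37 (12 higher, 5 lower). Fold changes of the members that rose ran from 1.25 to 3.65 with a median of 1.76. The large subunit gave 22 higher and 1 lower of 26 and the small subunit 20 higher and 1 lower of 23. Bright probe sets in general were more often higher with columns (53.5% of those with a mean log2 signal of 11 or more, with 18.6% lower), and all 35 members of that brightness were higher, by 0.32 to 1.68 on the log2 scale. In 22 members every column mouse was above every Trizol mouse, which held for 3.33% of all probe sets.

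**Figure D2:**
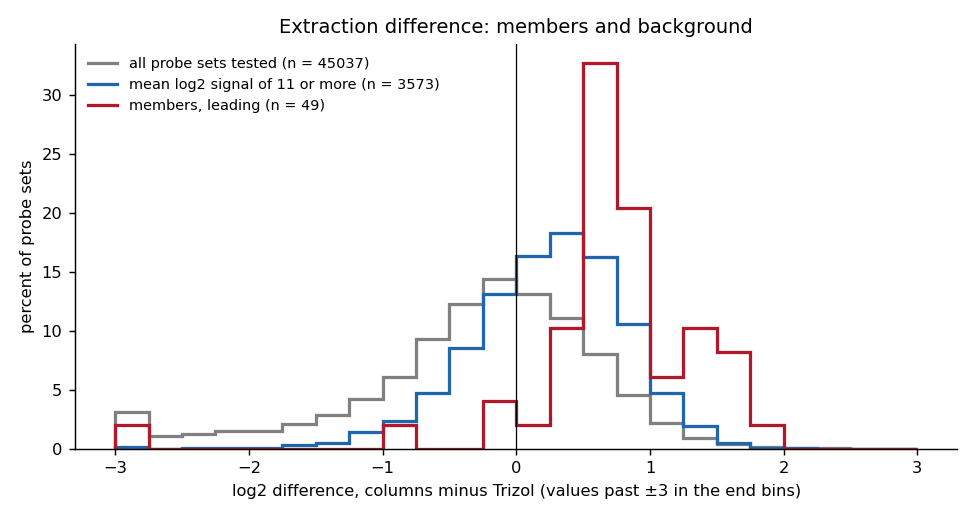
Share of probe sets (percent, vertical) in bins of the log2 difference between RNA/DNA columns and Trizol (horizontal), for all probe sets tested, for those with a mean log2 signal of 11 or more and for the 49 leading member probe sets. Most members lie to the right of both others, with a median of 0.72.

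Rpl41, which encodes a very small and highly basic protein, showed the largest difference among bright members. Its log2 signal was 14.41 to 14.95 (median 14.57) in handled mice with columns and 13.39 to 15.55 (median 14.77) in non-handled mice with columns. With Trizol it was 12.40, 13.03, 13.07 and 13.75 in handled mice and 12.36, 12.72, 13.20 and 13.38 in non-handled mice. Only a non-handled column mouse at 13.39 fell among the Trizol mice, and the difference was 1.68 ± 0.18 (SE) on the log2 scale, a 3.20-fold change (limma adjusted p = 2.25e-09).

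The small subunit protein genes Rps10 and Rps15 separated completely. Rps10 had a log2 signal of 11.80 to 12.77 (median 12.56) in handled and 11.83 to 14.15 (median 12.82) in non-handled mice with columns. With Trizol the values were 10.80, 10.97, 11.07 and 11.22 in handled mice and 10.65, 11.04, 11.17 and 11.25 in non-handled mice. All column mice were thus above all Trizol mice, by 1.65 ± 0.17 on the log2 scale (limma adjusted p = 9.83e-10). Rps15 differed by 1.52 ± 0.16 (adjusted p = 1.90e-09) and Rps9, another small subunit gene, by 1.51 ± 0.14 (adjusted p = 4.77e-11).

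Rplp0 and Rplp2 form, with Rplp1, the stalk of the large subunit that recruits elongation factors. Rplp0 had a log2 signal of 12.04 to 12.74 (median 12.47) in handled and 11.96 to 13.34 (median 12.64) in non-handled mice with columns. With Trizol it was 10.92, 11.08, 11.18 and 11.25 in handled mice and 11.02, 11.04, 11.08 and 11.56 in non-handled mice. Again no mouse overlapped, and the differences were 1.40 ± 0.13 for Rplp0 (adjusted p = 6.75e-11) and 1.38 ± 0.13 for Rplp2 (adjusted p = 1.25e-10). At the other end of the bright members stood Rps2, at the messenger RNA entry side of the small subunit, with 0.32 ± 0.10 (adjusted p = 0.0125). Rpsa, the small subunit protein also known as a laminin receptor, differed by 0.65 ± 0.14 (adjusted p = 0.000211), and Rpl11, which can bind Mdm2 when free of the ribosome, by 0.98 ± 0.12 (adjusted p = 3.87e-08).

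Rpl12, a protein at the base of the stalk, was lower with columns: 0.98 to 5.83 (median 5.55) in handled and 3.30 to 7.15 (median 6.02) in non-handled mice on the log2 signal scale. With Trizol the values were 8.22, 8.26, 8.51 and 8.52 in handled mice and 8.17, 8.30, 8.33 and 8.42 in non-handled mice. Every column mouse was below every Trizol mouse, by 3.43 on the log2 scale (SE 0.55, adjusted p = 3.59e-06), and this was the only member separated in that direction (8.15% of all probe sets were). The small subunit gene Rps25 fell by 0.79 on the log2 scale (SE 0.12, adjusted p = 2.38e-06), with some overlap among non-handled mice. Both were dim probe sets, with mean log2 signals of 6.05 and 8.97.

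The paralogues did not all pass the threshold for extraction. Rpl22l1, Rps27l and Rpl7l1, relatives of Rpl22, Rps27 and Rpl7, were higher with columns by 0.74 ± 0.11, 0.58 ± 0.12 and 0.47 ± 0.11 on the log2 scale (limma adjusted p = 1.18e-06, 0.000125 and 0.00058). Rps4l differed by 1.87 ± 0.32 (adjusted p = 1.29e-05), while Rps4x, the X-linked gene of the usual protein, differed by 0.44 ± 0.11 (adjusted p = 0.00183). Not past the threshold were Rpl39l with 0.95 ± 0.52 (adjusted p = 0.161) and Rpl3l, the muscle form of Rpl3, with 0.24 ± 0.56 (adjusted p = 0.778). Nor were Rpl39 with 0.28 ± 0.13 (adjusted p = 0.0833), Rps27 with -0.07 ± 0.25 (adjusted p = 0.872) and Rps16 with -0.08 (adjusted p = 0.906). Their probe sets were dim, with mean log2 signals of 5.98, 4.63, 9.26, 8.00 and 2.07 in that order, and that of Rps4l was 6.96. A missing call at such levels does not show that a gene behaved differently.

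The other probe sets of the same genes followed the leading one in part. Of 56, 36 were called in the same direction as the leading probe set and 6 in the opposite direction. The genes with opposed calls were Rpl27a, Rpl41, Rps10, Rps24 and Rps9, and in each the brightest probe set was higher and the dimmest lower with columns. For Rpl41, probe sets with mean log2 signals of 14.13 and 13.54 differed by 1.68 and 1.42, and those of 7.97 and 7.28 differed by -2.10 and -1.49. For Rps24 the brightest differed by 1.33 and the dimmest by -4.74 on the log2 scale. A further 110 probe sets name a ribosomal protein gene together with another gene, often a pseudogene, and 81 of these were higher and 6 lower with columns.

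The difference was present in both handling groups. Among handled mice 31 members were higher and 2 lower with columns (12.7% and 18.6% of all probe sets), with a median log2 difference of 0.64. Among non-handled mice 42 were higher and 2 lower (12.5% and 17.2% of all probe sets), with a median of 0.88. The large subunit's part of the member signal was 42.5% ± 0.74 with columns and 38.6% ± 0.83 with Trizol, ranging from 41.2 to 44.3% and from 37.3 to 39.6%, without overlap.

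Other features moved with the extraction method. The Gapdh 3′/5′ ratio on the natural log scale was 0.893 ± 0.13 (SD, n = 17) with columns and 1.19 ± 0.11 (SD, n = 8) with Trizol, and with the Gapdh and Actb ratios as covariates 42 members were higher and 2 lower. Cell type markers were read beside all probe sets tested, of which 16.5% were higher and 23.3% lower with columns. Among probe sets with a mean log2 signal of 11 or more these shares were 53.5% and 18.6%. Not every marker list is given here. Markers of microglia were higher with columns in 6 of 7 genes, with a summed signal of 16982 to 29290 against 8038 to 11839 with Trizol. Those of astrocytes were higher in 7 of 7 (53677 to 84568 against 41292 to 56642), those of oligodendrocytes in 6 of 6 and those of CA1 pyramidal neurons in 7 of 8 with 1 lower, and dentate granule markers were higher in 0 of 7 and lower in 2. No marker was at 0. In tissue RNA fewer cells of a type and less RNA per cell cannot be told apart, and the part of the cell type markers in the result was not tested.

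**Figure D3:**
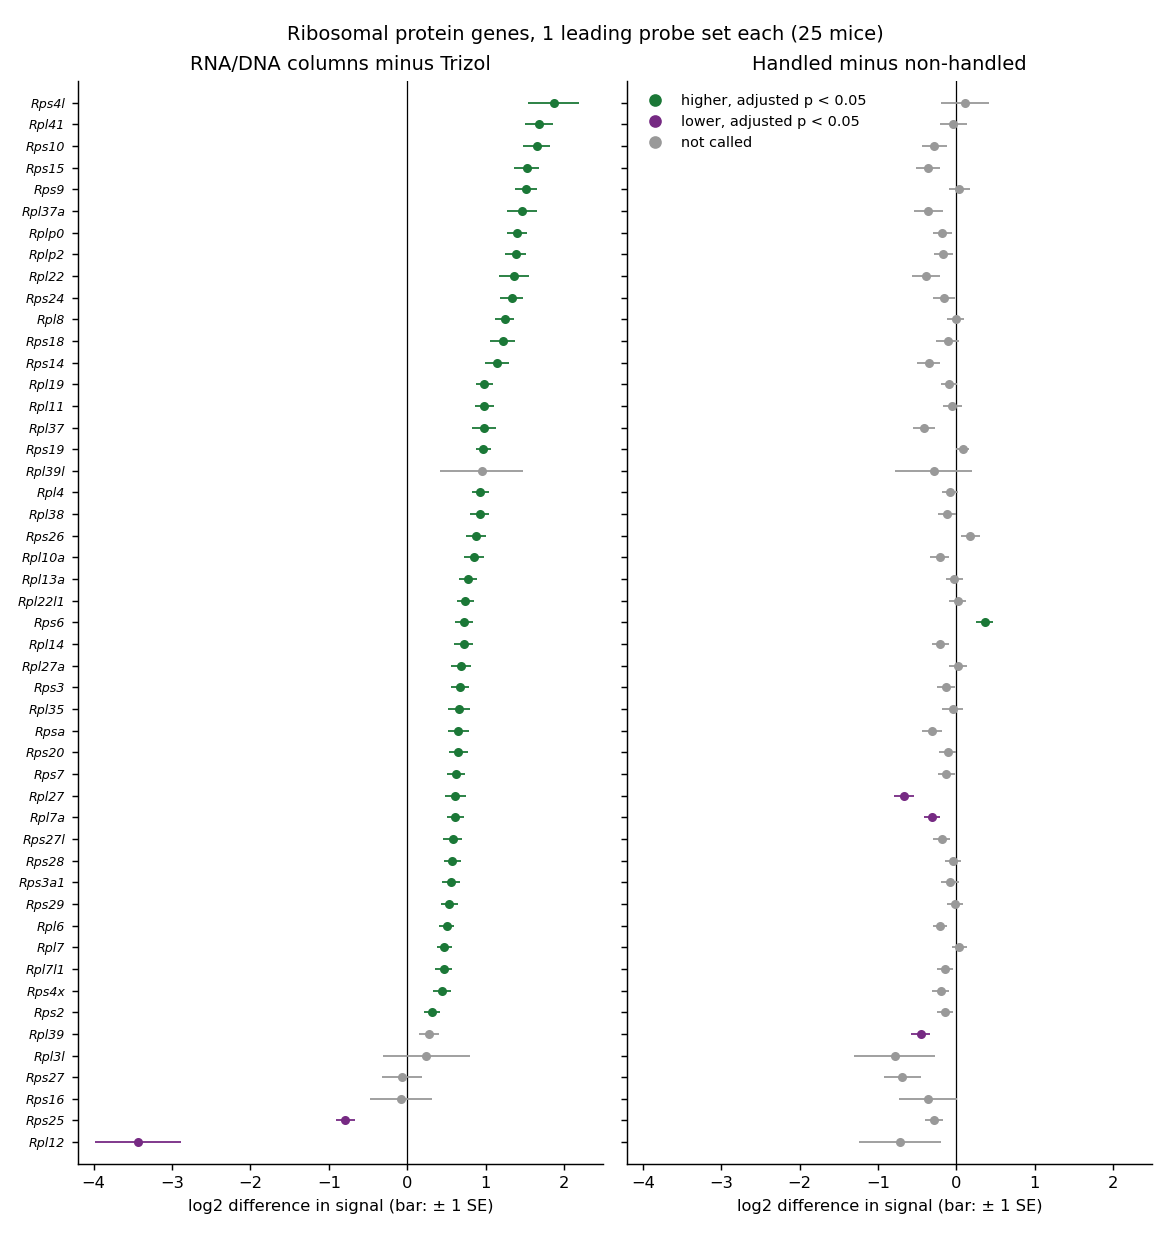
Log2 difference in signal of each member's leading probe set (points, bars ± 1 SE, from limma): left, RNA/DNA columns minus Trizol; right, handled minus non-handled. Green and purple points passed an adjusted p of 0.05. Of 49 genes, 42 are green on the left and 1 on the right, and purple marks 2 and 3.

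With extraction method in the model, 1 of 49 members was higher in handled mice, Rps6, and 3 were lower, Rpl27, Rpl39 and Rpl7a, at an adjusted p under 0.05 (limma). Over all probe sets tested 3.58% were higher and 7.93% lower, so members were called about as often as other probe sets. The median log2 difference over members was -0.15, as it was over all probe sets, and 0.06 over those with a mean log2 signal of 11 or more. At an unadjusted p under 0.05, 1 member was higher and 11 were lower, against 8.43% and 19.5% of all probe sets. Among probe sets with a mean log2 signal of 11 or more, 15.2% were higher and 5.46% lower, and of the 35 members of that brightness 0 were higher and 2 lower (0 and 7 at an unadjusted p under 0.05, limma, against 29.1% and 10.9% of probe sets of that brightness). These directions depend on the scale: centring each array on its median shifted the median of all probe sets by 0.28 and turned the member median to 0.13, with 5 members higher (Rpl22l1, Rpl7, Rps19, Rps26 and Rps6) and only Rpl27 lower. With arrays brought to a common mean and variance the member median was -0.35 against 0.03 over all probe sets, with 1 member higher and 12 lower, and with quantile normalization it was -0.07 against 0.02, with 0 higher and 3 lower.

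Rpl27, a protein of the large subunit, had the smallest adjusted p for handling among the leading probe sets. With columns its log2 signal was 12.17 to 12.53 (median 12.23) in handled and 12.64 to 14.01 (median 13.13) in non-handled mice. With Trizol it was 11.45, 11.996, 12.30 and 12.40 in handled mice and 12.12, 12.22, 12.23 and 12.46 in non-handled mice. Handled mice were all below non-handled mice with columns, which held for 1.13% of all probe sets and for no other member, whereas the Trizol groups overlapped. The difference was -0.67 ± 0.13 (SE) on the log2 scale, 0.63 times the non-handled level (adjusted p = 0.000892), and it stayed past the threshold without any 1 mouse and under each scaling. The other 2 probe sets of Rpl27 did not pass, at -0.16 ± 0.14 (adjusted p = 0.473) and -0.23 ± 0.15 (adjusted p = 0.309).

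Rpl39, which lines the exit tunnel for the nascent chain, was measured by a single dim probe set. With columns its log2 signal was 8.55 to 9.37 (median 9.06) in handled and 8.98 to 9.99 (median 9.62) in non-handled mice. With Trizol it was 8.68, 8.81, 8.97 and 9.19 in handled mice and 9.01, 9.03, 9.06 and 9.60 in non-handled mice. The groups overlapped under both methods, and the difference was -0.45 ± 0.12 (adjusted p = 0.0144). With each array centred on its median it was -0.18 and did not pass.

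Rpl7a, a large subunit protein whose window above holds the longest pyrimidine run shown, had a log2 signal of 13.36 to 13.77 (median 13.55) in handled and 13.72 to 14.84 (median 13.89) in non-handled mice with columns. With Trizol the values were 12.89, 13.20, 13.22 and 13.33 in handled mice and 13.10, 13.14, 13.21 and 13.32 in non-handled mice. The column groups nearly separated and the Trizol groups overlapped. The difference of -0.31 ± 0.10 (adjusted p = 0.0433) missed the threshold when any 1 of 12 of the 25 mice was left out (H108, H109, H110, H113, H116, H117, H118, NH147, NH156, NH157, NH165 or NH166), with -0.28 to -0.31 and adjusted p of 0.0512 to 0.0894.

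Rps6, the small subunit protein phosphorylated by S6 kinase, went the other way. With columns its log2 signal was 9.32 to 10.05 (median 9.74) in handled and 9.13 to 9.56 (median 9.34) in non-handled mice. With Trizol it was 8.31, 8.72, 8.99 and 9.69 in handled mice and 8.54, 8.69, 8.70 and 8.89 in non-handled mice. Most handled column mice were above the non-handled ones, with overlap. The difference of 0.36 ± 0.11 (adjusted p = 0.0327) missed the threshold when any 1 of H108, H109, H110, H113 or H116 was left out, with 0.29 to 0.36 and adjusted p of 0.0506 to 0.0724, and under quantile normalization. A dimmer probe set of Rps6, with a mean log2 signal of 4.45, was lower in handled mice by -1.99 ± 0.44 (adjusted p = 0.00395), so the array gives no single direction for this gene.

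Other dim probe sets outside the leading ones also passed, named here after their values were seen. A probe set of Rps3, at the messenger RNA entry side of the small subunit, had a log2 signal of 3.29 to 4.74 (median 4.08) in handled and 5.61 to 8.63 (median 7.01) in non-handled mice with columns. With Trizol it was 3.96, 4.37, 5.36 and 6.40 in handled mice and 6.51, 7.61, 8.01 and 8.29 in non-handled mice. Handled mice were below non-handled mice under both methods, with Trizol only narrowly (6.40 against 6.51). Such separation held for 1.13% of all probe sets with columns and for 2.94% with Trizol. The difference was -2.92 ± 0.33 on the log2 scale (limma adjusted p = 5.35e-07), the smallest adjusted p of any member probe set. The mean log2 signal of this probe set was 6.02. The leading and the remaining probe set of Rps3 differed by -0.13 (adjusted p = 0.467) and -0.09 (adjusted p = 0.565). A probe set of Rps24 with a mean log2 signal of 7.68 differed by -1.09 ± 0.31 (adjusted p = 0.0225).

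**Figure D4:**
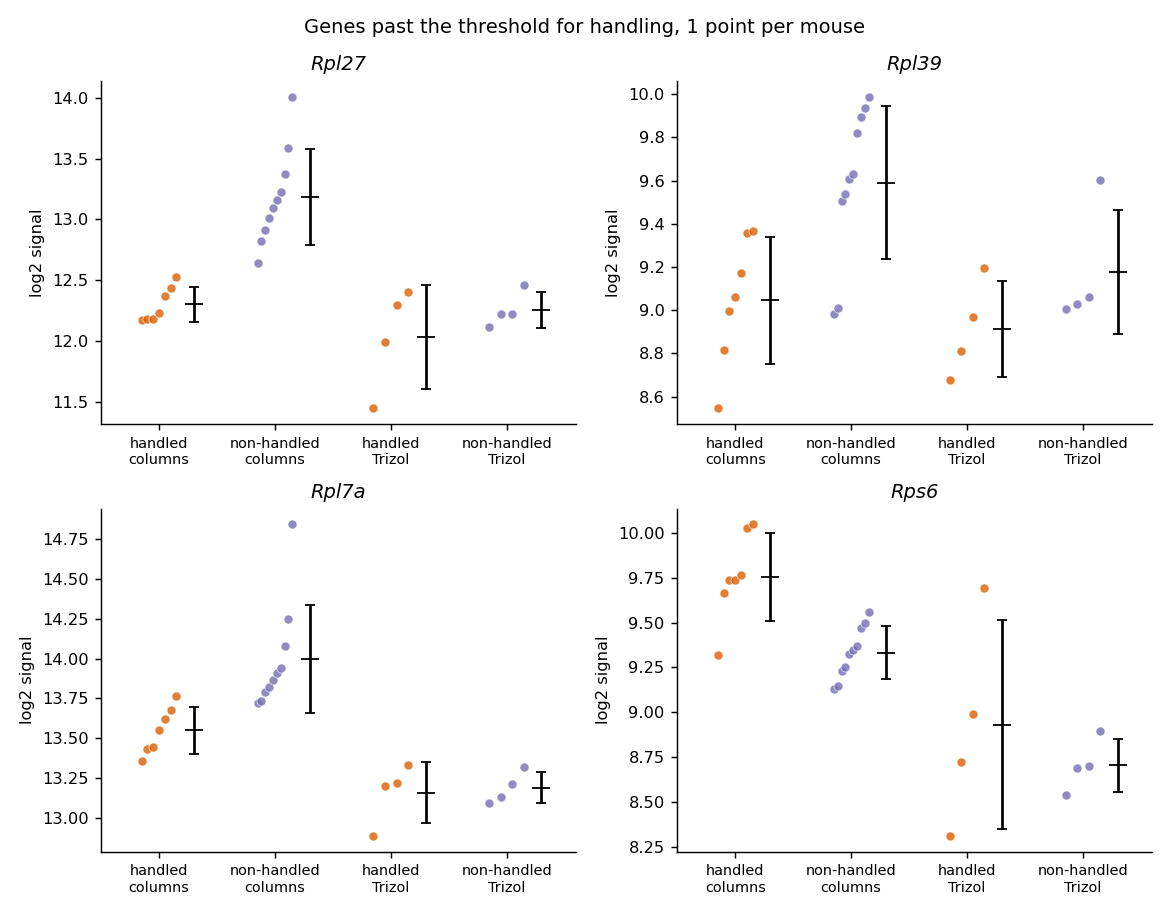
Log2 signal (vertical) of the 4 members past the threshold for handling, 1 point per mouse, by handling group and extraction method; the horizontal mark with its bar is the mean ± SD. For Rpl27 the handled mice with columns (12.17 to 12.53) lie below all non-handled mice with columns (12.64 to 14.01).

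Just outside the threshold lay Rpl37, with -0.41 ± 0.14 (adjusted p = 0.0523), and Rps27, with -0.69 ± 0.24 (adjusted p = 0.0532). Rpl37 passed when any 1 of H113, H130, NH138, NH142, NH147 or NH167 was left out, and Rps27 when any 1 of H116, H126, H130, NH138, NH144, NH155, NH167 or NH170 was left out, with adjusted p of 0.0243 to 0.0442 and 0.0154 to 0.0457. Rpl3l and Rpl12 had the largest differences in size, -0.79 ± 0.52 and -0.72 ± 0.52, with adjusted p of 0.333 and 0.378.

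Within extraction methods, members were called only among the mice with columns. Among these, 1 member was higher (Rps6) and 8 were lower in handled mice (4.4% and 8.18% of all probe sets), with a median log2 difference of -0.24. The 8 were Rpl27 (-0.88 ± 0.14, limma adjusted p = 8.94e-05), Rpl7a, Rpl39, Rps25, Rps27, Rpl6, Rpsa and Rpl22, the last at -0.62 ± 0.21 (adjusted p = 0.0479). Without NH162 the number lower was 4 and the median -0.16, and without NH142 the number was 13. It was 3 without any 1 of H109, H110, H117, NH156 or NH165, 4 without H118 or NH166 and 5 without H108, and Rps6 no longer passed without any 1 of H108, H109, H110, H116, H118, NH155, NH157, NH165 or NH166. The number higher was 3 and lower 1 with each array centred on its median, 0 and 3 with quantile normalization, and 0 and 4 with the control 3′/5′ ratios as covariates, while 23 were lower with arrays brought to a common mean and variance. Among the Trizol mice 0 members passed in either direction (0.0% of all probe sets), also at an unadjusted p under 0.05 (6.82% of all probe sets), and the median was 0.04. The difference between the 2 handling effects passed for 0 members by limma, against 0.00222% of all probe sets higher and 0.0488% lower, with 3 members at an unadjusted p under 0.05 (7.47% of all probe sets). For Rpl27 that difference was -0.66 ± 0.25 (adjusted p = 0.566).

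Marker lists were also read for handling, where 3.58% of all probe sets were higher and 7.93% lower. Among mice with columns the summed signal of interneuron markers was 16864 to 21026 in handled mice (median 18412) and 12334 to 17773 in non-handled mice (median 15605), and 2 of 7 were higher and 1 lower by limma over all mice. Microglial markers had medians of 20037 and 23601 (1 of 7 higher), and CA3 markers 1052 and 1321 (0 of 6 called by limma, 1 at an unadjusted p under 0.05). Choroid plexus markers summed to 366 to 508 in handled and 457 to 703 in non-handled mice (1 of 6 lower). With columns the ranges of the handled and non-handled mice overlapped for each of these lists. With Trizol, choroid plexus markers summed to 441 to 535 in handled and 575 to 3127 in non-handled mice, without overlap. The part of these markers in the handling differences was not tested.

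**Figure D5:**
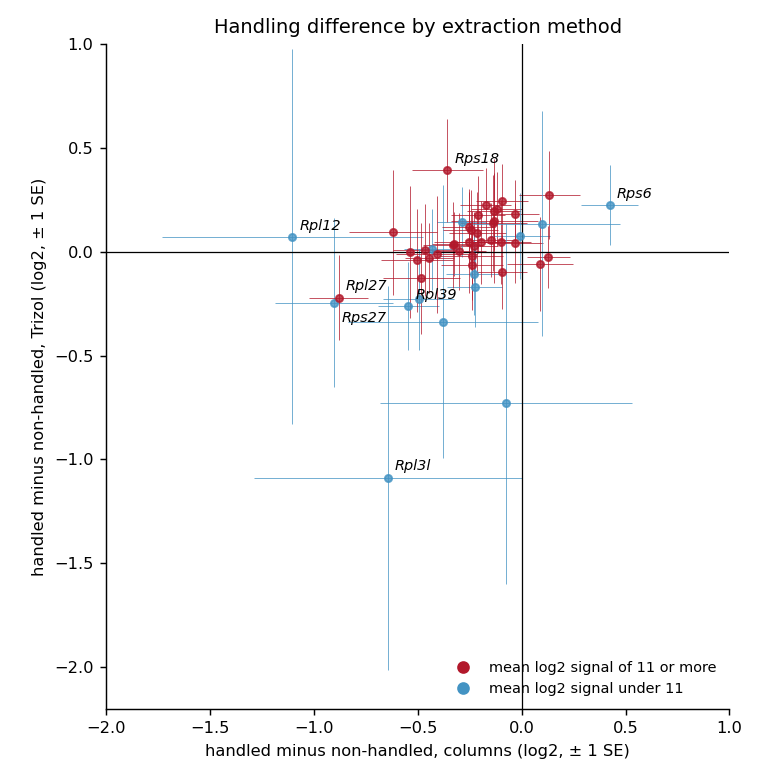
Handled minus non-handled log2 difference of each member (points, bars ± 1 SE) with columns (horizontal) and with Trizol (vertical), coloured by mean log2 signal. Most points lie left of 0 on the horizontal axis (44 of 49) and spread around 0 on the vertical axis (30 above, 19 below).

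Genes of the surrounding machinery were read from the same model. Of all probe sets tested, 16.5% were higher and 23.3% lower with columns, and 3.58% and 7.93% in handled mice. Among those with a mean log2 signal of 11 or more, 53.5% were higher and 18.6% lower with columns. Fau, whose protein is split to give a small subunit protein outside the symbol rule, was higher with columns (0.91 ± 0.15, limma adjusted p = 7.79e-06) and lower in handled mice (-0.43 ± 0.14, adjusted p = 0.0462). Of 18 other genes whose messages open with a pyrimidine tract, 14 were higher and 2 lower with columns, with a median of 0.93, and 1 was higher and 1 lower in handled mice. They included the elongation factor Eef2 (1.39 on the log2 scale), the growth-related Tpt1 (1.06) and the poly(A)-binding protein gene Pabpc1 (1.16), whereas Eef1a1 differed by 0.04 (adjusted p = 0.798) and Hnrnpa1 by -0.98. Elongation factors were higher with columns in 7 of 10 and lower in 0, and initiation factors higher in 18 and lower in 5 of 32.

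Lists further from the ribosome differed from one another for extraction, where 16.5% of all probe sets tested were higher with columns and 23.3% lower. Ribosome biogenesis genes were higher with columns in 19 and lower in 6 of 48, mTOR and S6 kinase signalling genes higher in 6 and lower in 8 of 19, RNA polymerase I genes higher in 2 and lower in 2 of 12, ribosome-associated quality control genes higher in 2 and lower in 6 of 10, and genes of the p53 response to free ribosomal proteins higher in 1 and lower in 2 of 7. Among them the mTOR complex component Rictor differed by -1.72 and the biogenesis factor Nvl by -1.69. Other large complexes resembled the members, with 53 higher and 3 lower of 76 mitochondrial ribosomal proteins, 69 higher and 3 lower of 90 respiratory chain subunits and 26 higher and 1 lower of 39 proteasome subunits.

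The same lists were counted for handling, where 3.58% of all probe sets were higher and 7.93% lower. Of 76 mitochondrial ribosomal proteins 2 were higher and 12 lower in handled mice, of 90 respiratory chain subunits 1 and 6, and of 39 proteasome subunits 6 and 3. Of 48 biogenesis genes 6 were higher and 2 lower, of 32 initiation factors 3 and 3, and of 19 mTOR and S6 kinase genes 2 and 2. Quality control genes gave 1 and 1 of 10, RNA polymerase I genes 0 and 2 of 12, elongation factors 0 and 1 of 10 and p53 genes 0 and 0 of 7 (limma, adjusted p under 0.05). The factor Eif6, which keeps large subunits from joining small ones too early, was lower in handled mice (-0.60, adjusted p = 0.00179), as was the mTOR complex component Rptor (-0.50, adjusted p = 0.000585), while Pdcd4, an inhibitor of the initiation helicase, was higher (0.56, adjusted p = 0.000449).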

How the data were processed

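The authors imported the array scans into Affymetrix Expression Console and summarised each probe set with MAS 5.0, and the deposited values are linear intensity signals with no distribution normalization. Log2 signals of the 45037 probe sets left after 64 control probe sets were removed were fitted with limma 3.58.1 in R 4.3.3 (handling and extraction method as terms, trended prior, two-sided, Benjamini-Hochberg over all probe sets). Handling within each extraction method, extraction within each handling group and their interaction came from contrasts of 4 group means. Probe sets were named from the platform annotation, with symbols updated by gene identifier (34958 name 1 gene, 932 several and 9211 none). The fit was tested on simulated data with independent noise for each probe set and array. That test holds no litters and no shifts shared by the probe sets of an array, so it does not cover them. Members and gene lists were chosen with earlier results of these data known. Genes were named by a rule on p, size, spread and role. Alternatives were other scalings, an offset, a filter on dim probe sets, priors, array weights, covariates, other probe sets and leaving out each mouse. Precision is limited by the 25 arrays and, for handling, by the smaller number of litters. Start windows and promoter motifs were read from RefSeq sequences (GRCm38.p6).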

Additional observations from a re-analysis of the deposited data

Results flagged for a closer look

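Within groups of 4 to 10 mice, a single mouse stood apart in 10 of the 148 cases examined, which did not cover every member. Chance alone marks about 5 percent of them. The measure is the gap to the nearest mouse divided by the whole range of the group. Among non-handled mice with Trizol, NH138 was lowest for Rpl22 (0.836), Rpl39l (0.835) and Rps16 (0.885), NH144 was highest for Rpl39 (0.908) and NH147 was highest for Rplp0 (0.891). Among handled mice with Trizol, H113 was lowest for Rps15 (0.902). Among non-handled mice with columns, NH162 was highest for Rpl7 (0.617) and Rpl7a (0.529), and NH142 was lowest for Rpl39l (0.512). Among handled mice with columns, H123 was highest for Rps2 (0.601).

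For Rpl7a the log2 signal of NH162 was 14.84 against 13.72 to 14.25 in the other non-handled mice with columns, and for Rps2 that of H123 was 15.57 against 15.09 to 15.29.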

How the results depend on the processing

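For single members the extraction call kept its direction and side of the threshold in 1135 of the alternative values, 12 passed newly and 4 were lost. For handling 1130 were kept, 31 passed newly and 25 were lost. Leaving out each mouse in turn gave 42 to 44 members higher and 2 to 2 lower with columns, and for handling 0 to 1 higher and 2 to 5 lower (5 without H126, H130, NH138, NH142 or NH167). With columns alone it gave 0 to 1 higher and 3 to 13 lower in handled mice.

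In the handling comparison the number higher was 0 with quantile normalization, without the trended prior and without the extraction term, and 5 with each array centred on its median. The number lower was 1 with median centring, 12 with arrays brought to a common mean and variance, 5 among the upper 50% of probe sets by signal, 5 with array weights and 6 over all probe sets of members. Probe sets shared with other genes gave 0 and 5, and bright members 0 higher; these settings were chosen after seeing the data. For extraction, median centring gave a member median of 1.196 and a difference in level per mouse of 1.57, against 0.72 and 1.12. The numbers higher and lower were 78 and 8 over all probe sets of members, 12 and 5 of 26 genes with plain probe set names and 81 and 6 over shared probe sets, and the number lower was 1 among the upper 50% and 0 among bright members. Among mice with columns, the numbers higher and lower for handling were 0 and 3 with quantile normalization, 3 and 1 with median centring, 0 and 3 without the trended prior, 0 and 4 with the control ratios as covariates, 0 and 5 over shared probe sets and 0 and 5 among bright members. The number lower was 23 with a common mean and variance and 13 over all probe sets of members. The causes were not tested. The scalings moved the median extraction difference of all probe sets by 0.32 (quantile), 0.47 (median) and 0.32 (mean and variance).

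No paired analysis was possible because the handled and non-handled mice share no label number. Dim leading probe sets and the 4 Trizol mice per group limit what can be seen.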
